A study of Homo sapiens with 15 samples.

Results

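NFKB1, NFKB2, RELA, RELB, NFKBIA, NFKBIZ, TNFAIP3, BIRC2, BIRC3 and TNFAIP2 encode 4 subunits of the transcription factor NF-kB and 6 of its regulators and feedback genes. They were chosen by symbol and are 10 of the 62754 genes in the deposited count table. RNA was sequenced from MCF10A, a non-tumorigenic human breast epithelial cell line, here of wild-type genotype. All cells grew in DMEM/F12 medium without glutamine to which glutamine was added in 4 limited amounts (0.04 mM, then 0.12 mM, 0.20 mM and 0.28 mM) or at the 2.5 mM that this medium normally contains (full media). Each of the 5 conditions had 3 biological replicates, numbered 1 to 3, which gave 15 libraries. The labels do not say whether a replicate was a separate culture, so p-values measure the spread between these libraries, which may be partly technical. In fits that pair libraries by replicate number, p-values measure the spread left after differences between the numbers are removed.

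NF-kB is a family of dimeric transcription factors held in the cytoplasm by IkB proteins. Receptors for TNF, interleukin 1 and related ligands build ubiquitin scaffolds that activate the IKK kinases, IkB is degraded, and the dimers enter the nucleus and bind kB sites in DNA. Among the genes they switch on are the inhibitors that end the response, so the levels of transcripts such as NFKBIA, TNFAIP3 and BIRC3 are commonly read as a trace of the pathway. In mammary epithelium the pathway is known for its part in inflammatory signalling, cell survival and branching growth.

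The 10-base kB consensus was searched on both strands of the RefSeq promoter windows of GRCh38.p14, which run from 250 bases before to 50 bases after each annotated start. It reads GGG, A or G, any base, A or T, C or T, C or T, then CC, and sites that depart from it were not searched. The consensus was found in 5.91% of all 35116 windows and in at least 1 window of 7.09% of all genes. Of the 9 members with a window, 6 held a match (NFKB1, NFKB2, NFKBIA, NFKBIZ, TNFAIP3 and BIRC3), while the windows of RELA, BIRC2 and TNFAIP2 held no match to this consensus. The windows of the genes on which the results turn are printed 5′ to 3′ along the gene, with the matches in capitals. They are on the plus strand at chr11:102317234-102317533 (BIRC3), chr6:137867009-137867308 (TNFAIP3) and chr11:102346964-102347263 (BIRC2, the first of its overlapping pair of windows). The TNFAIP3 window belongs to a transcript start inside the annotated gene interval, and so does the TNFAIP2 window. For both genes the start of the annotated interval itself was not searched.
BIRC3: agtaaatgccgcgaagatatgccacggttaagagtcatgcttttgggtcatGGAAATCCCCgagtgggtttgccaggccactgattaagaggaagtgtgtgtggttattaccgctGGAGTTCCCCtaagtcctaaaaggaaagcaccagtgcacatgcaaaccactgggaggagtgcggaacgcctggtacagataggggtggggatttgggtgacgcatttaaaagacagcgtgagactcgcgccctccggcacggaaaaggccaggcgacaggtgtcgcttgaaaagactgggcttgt
TNFAIP3: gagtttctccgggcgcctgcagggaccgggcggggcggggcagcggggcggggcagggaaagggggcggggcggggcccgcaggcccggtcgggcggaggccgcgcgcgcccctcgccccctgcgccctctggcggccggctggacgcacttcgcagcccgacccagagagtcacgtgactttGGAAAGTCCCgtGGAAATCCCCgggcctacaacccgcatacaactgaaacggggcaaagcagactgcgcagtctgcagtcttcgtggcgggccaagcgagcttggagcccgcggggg
BIRC2: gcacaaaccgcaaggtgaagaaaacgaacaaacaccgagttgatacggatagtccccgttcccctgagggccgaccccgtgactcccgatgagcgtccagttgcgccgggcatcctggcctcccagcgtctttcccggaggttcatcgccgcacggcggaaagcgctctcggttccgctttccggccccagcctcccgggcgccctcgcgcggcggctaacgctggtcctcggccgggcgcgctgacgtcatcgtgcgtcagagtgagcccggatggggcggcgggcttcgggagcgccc

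The BIRC3 and TNFAIP3 windows each held 2 matches, and 0.738% of all windows held at least 2. In both windows the matches lay on the strand opposite to the gene, at positions -199 and -135 from the BIRC3 start and -67 and -55 from the TNFAIP3 start. The 10 bases GGAAATCCCC occurred in both. NFKB1 carried GGGAATTTCC at -49 and NFKBIZ had the same letters at -223 from its first start, while NFKBIA carried GGAAATTCCC at -81. NFKB2 had the most matches, 5 in 2 of its 3 windows, of which GGGAATTCCC at -107 and GGAATTCCCC at -106 overlap. A match to the consensus was not tested for binding.

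**Figure D1:**
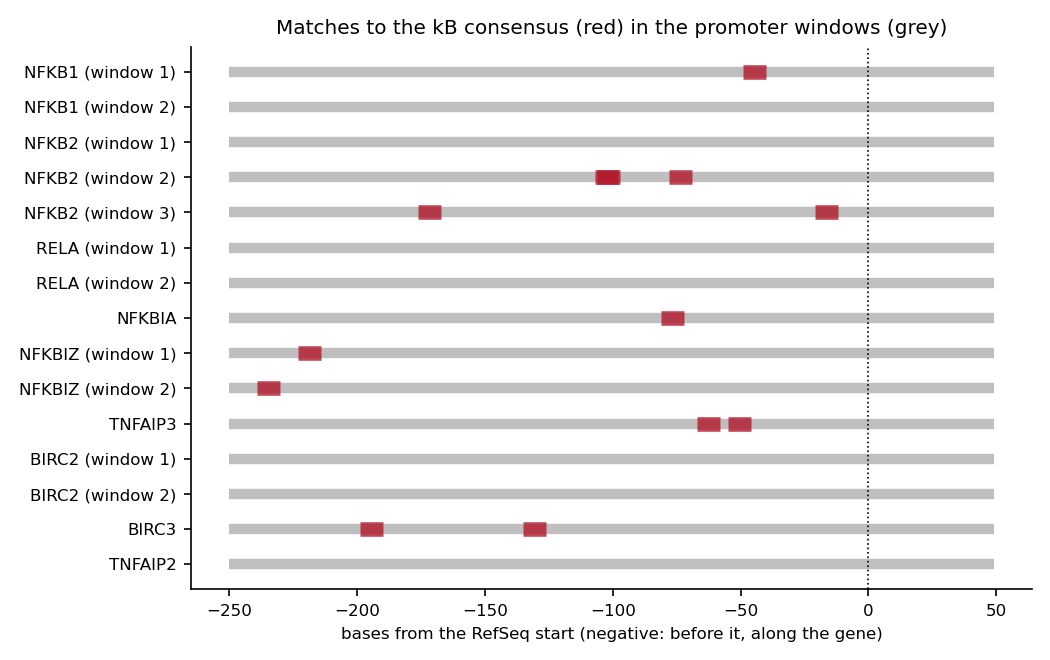
Position of kB consensus matches (red) in the RefSeq promoter windows (grey) of 9 members, in bases from the annotated start. The horizontal axis runs along the gene, with bases before the start negative. BIRC3 and TNFAIP3 have 2 matches each before their start, and no match is drawn for RELA, BIRC2 or TNFAIP2.

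Library totals ran from 3704170 to 13361406 gene counts, and spike-in RNA took 1.03 to 1.58% of all counts. All 15 markers of basal breast epithelium passed the filter on low counts, and their summed level was 25970 to 41280 CPM (counts relative to the library total). Marker levels use the unscaled total of gene counts, while levels of the members and pathway genes use the scaled library total. Among immune markers CD3E, MS4A1 and TYROBP had 0 counts in every library and PTPRC had 1 count in all, while CSF1R (3.62 to 10.2 CPM) and CD14 (1.15 to 2.42 CPM) were detected. Among fibroblast markers LUM and THY1 were at 0, while POSTN (62.7 to 125.3 CPM), DCN (13.1 to 45.6 CPM), COL1A1 (11.9 to 41.8 CPM) and FAP (8.91 to 15.2 CPM) were detected. Among endothelial markers CDH5, CLDN5 and EMCN were at 0 and PECAM1 stood at 3.38 to 11.9 CPM. Mitochondrial ribosomal RNA took 2.97% of the counts in replicate 3 at 0.04 mM and 1.62% in replicate 3 at 0.12 mM, against at most 0.402% in the other libraries. Libraries of replicate 1 were the deepest of each condition, with 11228596 to 13361406 counts.

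Libraries that shared a replicate number resembled each other across conditions, so each comparison is given with a replicate block (each limited library set against the full media library of its own number) and without it. "Rose" and "fell" refer to an adjusted p under 0.05 in the fit with the block, by edgeR's quasi-likelihood test with Benjamini-Hochberg adjustment over all 13828 genes tested. The fit without the block called 0 of the 10 members in each of the 6 tests. Of all genes it called 0.0434% at 0.04 mM, 0.0145% at 0.20 mM and 0 elsewhere. At an unadjusted p under 0.05 it held 2 members at 0.04 mM against full media, 1 at 0.20 mM, 1 at 0.04 against 0.28 mM, 1 for the slope over the limited concentrations and 0 at 0.12 mM and 0.28 mM. The same rule held for 11.6% of all genes at 0.04 mM, 8.03% at 0.12 mM, 10.2% at 0.20 mM and 4.45% at 0.28 mM. It held for 2.05% at 0.04 against 0.28 mM and 2.18% for the slope. DESeq2 without the block called TNFAIP3 at 0.04 mM (adjusted p = 0.0202) and no other member, while 100 of all 13828 genes rose and 55 fell. All 10 members passed the filter on low counts, with 984 (TNFAIP2) to 16052 (NFKB1) counts summed over the 15 libraries.

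With the block, 3 of the 10 members rose and 0 fell at 0.04 mM glutamine: BIRC3, TNFAIP3 and BIRC2. Over all genes 7.21% rose in that comparison and 13.4% changed in either direction. BIRC3 also rose at 0.12 mM, where 4.41% of all genes rose and 8.31% changed, and both BIRC3 and BIRC2 rose at 0.20 mM, where 7.67% rose and 14.8% changed. At 0.28 mM no member was called, while 1.23% of all genes rose and 2.08% changed. There 1 member (BIRC2) and 15.9% of all genes had an unadjusted p under 0.05. DESeq2 with the block called 0 members at 0.28 mM, while 210 of all 13828 genes rose and 142 fell. The median log2 change of the 10 members was 0.26 at 0.04 mM, 0.14 at 0.12 mM, 0.19 at 0.20 mM and 0.11 at 0.28 mM, beside medians over all genes between 0.000067 and 0.0064. The subunits that carry the pathway's signal were not among the called genes. These 4 comparisons share the same full media libraries.

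**Figure D2:**
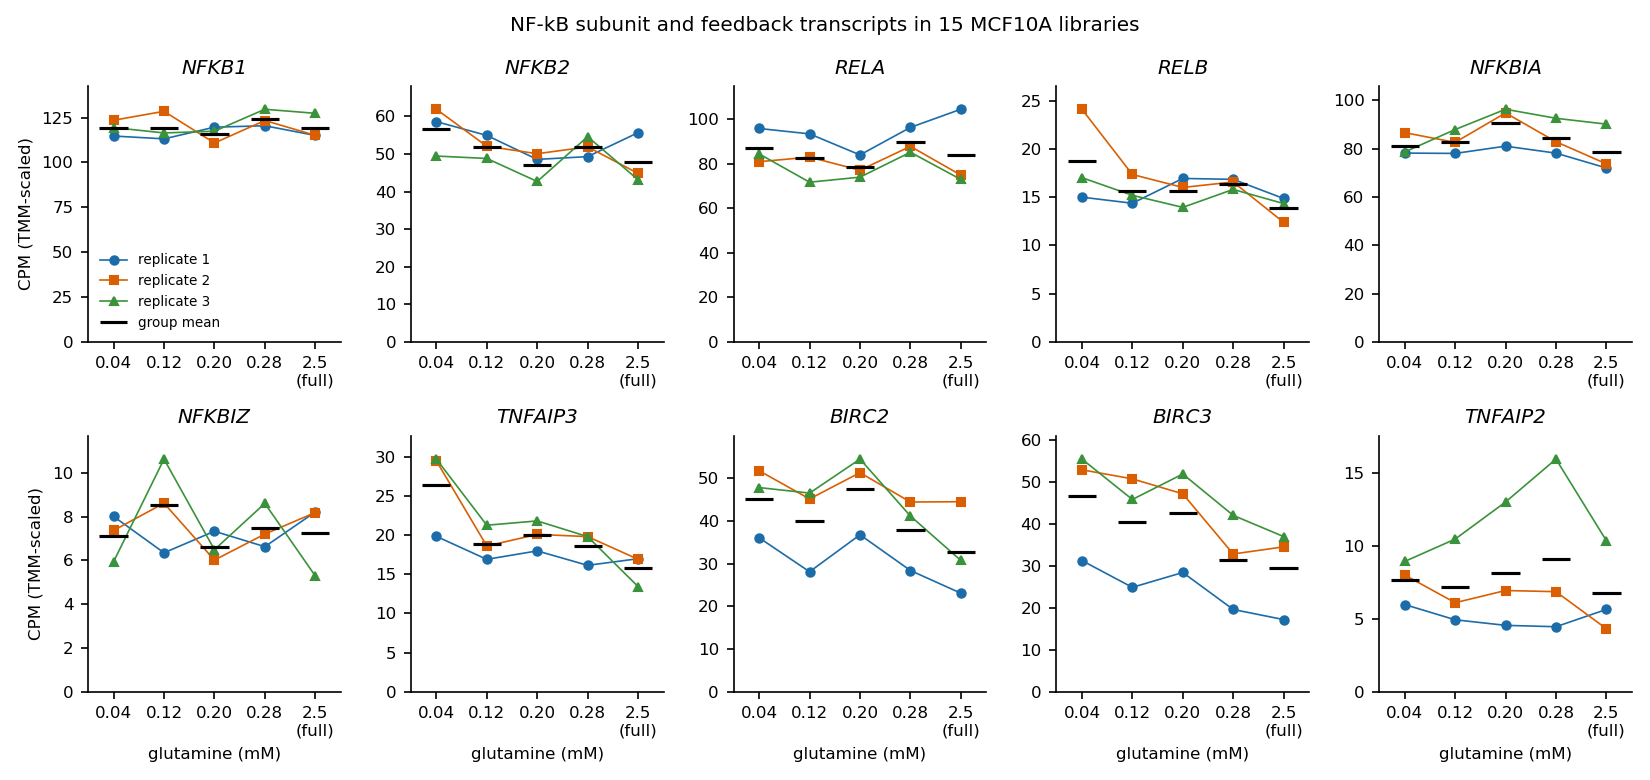
TMM-scaled CPM (vertical axis, linear, from 0) of the 10 members in the 15 libraries, by glutamine concentration in the medium (horizontal axis, equal steps, full media at the right). Symbols and lines mark the 3 replicate numbers and black bars the mean of 3 libraries. For BIRC3 and BIRC2 replicate 1 is lowest in all 5 conditions, and each line is lower in full media than at 0.04 mM.

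The most abundant members per transcript length were NFKBIA and the subunit genes NFKB1, RELA and NFKB2. In full media NFKBIA stood at 33.1 CPM per kilobase of annotated exon, NFKB1 at 19.0, RELA at 15.4 and NFKB2 at 10.7. BIRC2 followed at 7.23, RELB at 4.57, BIRC3 at 3.93 and TNFAIP3 at 3.12, and TNFAIP2 (1.34) and NFKBIZ (1.23 CPM per kilobase) were lowest. Neighbours in this order whose libraries overlap were NFKB1 and RELA, NFKB2 and BIRC2, RELB and BIRC3, BIRC3 and TNFAIP3, and TNFAIP2 and NFKBIZ.

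NFKB1 (ENSG00000109320, chr4:102501359-102617302, plus strand) encodes p105, the precursor of the DNA-binding subunit p50. Its level was 114.7, 123.5 and 119.4 CPM in replicates 1, 2 and 3 at 0.04 mM, against 115.0, 115.1 and 127.4 CPM in full media. The libraries of both conditions lie within the same narrow range, and over all 15 libraries the highest was 1.17 times the lowest, the smallest span of the 10 members. The log2 change was 0.0028 at 0.04 mM (95% interval -0.141 to 0.147, adjusted p = 0.987), and between -0.036 and 0.064 at the other concentrations.

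RELA (ENSG00000173039, chr11:65653601-65663857, minus strand) encodes p65, the subunit that carries the main activation domain. RELA had 95.7, 80.8 and 84.3 CPM at 0.04 mM and 104.3, 74.8 and 72.9 CPM in full media, so the conditions overlap, and replicate 1 was the highest of the 3 in all 5 conditions. Its log2 change was 0.049 at 0.04 mM (95% interval -0.115 to 0.212, adjusted p = 0.749) and between -0.097 and 0.099 at the other concentrations, with adjusted p of 0.448 or more. An antisense gene overlaps 0.165% of its exonic bases, and whether counting used strand is not given in the sources used here.

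NFKB2 (ENSG00000077150, chr10:102394110-102402529, plus strand) encodes p100, which is both an inhibitor and the precursor of p52, the DNA-binding partner in the non-canonical branch. Its level was 58.6, 61.9 and 49.5 CPM at 0.04 mM, against 55.7, 44.8 and 43.1 CPM in full media. Each 0.04 mM library exceeded the full media library of its number, by 1.05, 1.38 and 1.15 times, while the conditions as a whole overlap. The log2 change of 0.25 (SE 0.0951) missed the threshold (adjusted p = 0.0822), and without full media replicate 1 it was 0.36 (adjusted p = 0.0141). The log2 changes were 0.12 at 0.12 mM, -0.027 at 0.20 mM and 0.11 at 0.28 mM.

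RELB (ENSG00000104856, chr19:45001464-45038192, plus strand) encodes the subunit that pairs with p52. RELB reached 15, 24.1 and 17 CPM at 0.04 mM and 14.9, 12.4 and 14.3 CPM in full media. The conditions do not overlap, which held in this direction for 6.95% of all genes, yet the gap rests mainly on replicate 2 (1.95 times its full media library, against 1.01 and 1.19 times in replicates 1 and 3). The log2 change was 0.41 (SE 0.153, adjusted p = 0.0723). It passed the threshold when replicate 1 at 0.04 mM (0.61, adjusted p = 0.0185) or full media replicate 1 (0.50, adjusted p = 0.0491) was left out. At 0.28 mM the conditions did not overlap either, with 16.9, 16.6 and 15.8 CPM at 0.28 mM; 4.34% of all genes were higher without overlap there, and the log2 change was 0.24 (adjusted p = 0.430).

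Of the inhibitors, TNFAIP3 rose at 0.04 mM, and NFKBIA and NFKBIZ were not called at any concentration. NFKBIA (ENSG00000100906, chr14:35401513-35404749, minus strand) encodes IkB-alpha, which retains NF-kB in the cytoplasm and is resynthesised soon after activation. It had 78.2, 86.6 and 78.6 CPM at 0.04 mM against 72.0, 73.7 and 90.2 CPM in full media, with a log2 change of 0.065 (95% interval -0.0942 to 0.224, adjusted p = 0.640). The largest of its changes was at 0.20 mM, where the libraries held 81.1, 94.8 and 96.3 CPM and exceeded full media in 3 of 3 pairs. That change, 0.21 (SE 0.0750), stood at adjusted p = 0.0573, and at 0.0279 without full media replicate 3, 0.0437 without both libraries rich in mitochondrial rRNA and 0.0472 with a filter of 5 CPM in 3 libraries.

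NFKBIZ (ENSG00000144802, chr3:101827990-101861022, plus strand) encodes a nuclear IkB protein that modulates a subset of targets. It was measured with 989 counts in all, at 8.01, 7.37 and 5.94 CPM at 0.04 mM and 8.22, 8.19 and 5.30 CPM in full media. The log2 change was 0.0028 with a wide 95% interval of -0.440 to 0.446 (adjusted p = 0.996). The other concentrations lay between -0.14 and 0.17, with adjusted p of 0.701 or more.

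TNFAIP3 (ENSG00000118503, chr6:137866349-137883312, plus strand) encodes A20, a ubiquitin-editing enzyme that takes down signalling complexes and is itself an NF-kB target. Its libraries held 19.9, 29.5 and 29.7 CPM at 0.04 mM, against 17.0, 16.9 and 13.4 CPM in full media. All 3 libraries at 0.04 mM were above all 3 in full media, which held in this direction for 6.95% of all genes. Replicates 2 and 3 were much further from their partners (1.74 and 2.21 times) than replicate 1 (1.17 times). TNFAIP3 rose by 0.68 on the log2 scale (SE 0.137, 95% interval 0.404 to 0.963, 1.61-fold, adjusted p = 0.00101). Without the block the change was 0.72 (adjusted p = 0.129). An antisense gene with 42 counts in all libraries overlaps 1.88% of its exonic bases.

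At the higher concentrations the mean of TNFAIP3 lay between those of 0.04 mM and full media. It had 16.9, 18.6 and 21.3 CPM at 0.12 mM, 18, 20.1 and 21.8 CPM at 0.20 mM and 16.1, 19.8 and 19.8 CPM at 0.28 mM. The 0.20 mM libraries were all above the full media libraries, as 7.15% of all genes were, with a log2 change of 0.32 (SE 0.134, adjusted p = 0.109, and 0.0204 without full media replicate 1). The changes at 0.12 and 0.28 mM were 0.23 (adjusted p = 0.333) and 0.21 (adjusted p = 0.474).

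BIRC3 and BIRC2 encode cIAP2 and cIAP1, ubiquitin ligases that build the scaffolds for canonical signalling at the TNF receptor and hold the non-canonical branch off by marking the kinase NIK for degradation. The genes lie side by side on chromosome 11, both on the plus strand: BIRC3 (ENSG00000023445) at chr11:102317484-102339403 and BIRC2 (ENSG00000110330) at chr11:102347214-102378670, with 7810 bases between them. Being paralogs they share similar coding sequence, and how the authors' counting treated reads that match both is not given in the sources used here.

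BIRC3 had the smallest p of the members. Its libraries held 31.2, 52.8 and 55.4 CPM at 0.04 mM, against 17.2, 34.5 and 36.9 CPM in full media. The conditions overlap, because replicate 1 at 0.04 mM (31.2 CPM) was below replicates 2 and 3 in full media, but within each number the 0.04 mM library was higher, by 1.82, 1.53 and 1.5 times. BIRC3 rose by 0.68 on the log2 scale (SE 0.102, 95% interval 0.476 to 0.891, 1.61-fold, adjusted p = 4.16e-05). Without the block the change was 0.64 with an SE of 0.341 (adjusted p = 0.485).

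At 0.12 mM BIRC3 had 24.9, 50.7 and 45.8 CPM and at 0.20 mM 28.4, 47.1 and 51.8 CPM. It rose at both, by 0.47 (SE 0.101, adjusted p = 0.00321) and 0.54 (SE 0.0987, adjusted p = 0.000408), and was above its full media partner in 3 of 3 pairs each time, as 19.4% and 22.7% of all genes were. The rise at 0.12 mM did not pass with scaling to spike-ins (0.29, adjusted p = 0.188) or without replicate 2 at 0.12 mM (0.37, adjusted p = 0.0634). At 0.28 mM its level was 19.6, 32.8 and 42.0 CPM, close to full media, with a log2 change of 0.099 (95% interval -0.109 to 0.306, adjusted p = 0.689).

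BIRC3 was also the only member called in the direct comparison of limited concentrations. At 0.04 mM against 0.28 mM it rose by 0.58 (SE 0.101, adjusted p = 0.0142), where 0.0145% of all genes rose (2 of 13828). The call ended when replicate 1 or 2 was left out at 0.04 mM (0.54, adjusted p = 0.0517, and 0.60, adjusted p = 0.167) or at 0.28 mM (0.57, adjusted p = 0.0842, and 0.51, adjusted p = 0.322). TNFAIP3 did not overlap between these conditions, which held for 2.73% of all genes in this direction, and its log2 change was 0.47 (SE 0.135, adjusted p = 0.207). BIRC2 changed by 0.27 (SE 0.104, adjusted p = 0.421) in the same comparison.

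Across the 12 limited libraries alone, no member had a slope over log2 glutamine past the threshold, nor did any of 13631 genes tested with the block. The steepest members were TNFAIP3 and BIRC3, both at -0.16 per doubling of glutamine (SE 0.0413 and 0.0404, adjusted p = 0.251 and 0.259). With the block 3 members and 7.70% of all genes had an unadjusted p under 0.05. DESeq2 called 0 members with and without the block. Of all 13631 genes it called 7 positive and 19 negative slopes with the block, and 0 without it.

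BIRC2 had 36.1, 51.8 and 47.8 CPM at 0.04 mM, against 23.1, 44.5 and 30.7 CPM in full media. Here too the conditions overlap, but each 0.04 mM library exceeded its partner, by 1.56, 1.16 and 1.56 times. BIRC2 rose by 0.49 on the log2 scale (SE 0.106, 95% interval 0.270 to 0.701, 1.40-fold, adjusted p = 0.00214). Without the block the change was 0.46 with an SE of 0.249 (adjusted p = 0.5).

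BIRC2 was as high at 0.20 mM, with 36.8, 51.3 and 54.5 CPM, 1.59, 1.15 and 1.77 times full media. It rose by 0.55 there (SE 0.101, adjusted p = 0.000461). At 0.12 mM it had 28.1, 45.2 and 46.5 CPM and a log2 change of 0.27 (SE 0.104, adjusted p = 0.101, and 0.0165 without full media replicate 2). At 0.28 mM it had 28.4, 44.4 and 41.2 CPM and a log2 change of 0.22 (adjusted p = 0.291).

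The ratio of BIRC3 to BIRC2 counts was 0.866, 1.02 and 1.16 at 0.04 mM and 0.884, 1.12 and 0.984 at 0.12 mM. At 0.20 mM it was 0.772, 0.918 and 0.951, at 0.28 mM 0.690, 0.738 and 1.02, and for the full media libraries 0.744, 0.775 and 1.2. Replicate 1 had the lowest ratio in every condition, and the conditions overlap. A difference in response between both genes was not tested.

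TNFAIP2 (ENSG00000185215, chr14:103121469-103137439, plus strand), a TNF-induced gene linked to membrane protrusions, was low and scattered. It had 5.96, 7.99 and 8.92 CPM at 0.04 mM and 5.63, 4.31 and 10.3 CPM in full media. Replicate 3 was highest in all 5 conditions, reaching 15.9 CPM at 0.28 mM, and the highest library was 3.69 times the lowest, the widest span of the 10 members. No change was called: the log2 changes were between 0.086 and 0.34, with adjusted p of 0.448 or more.

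**Figure D3:**
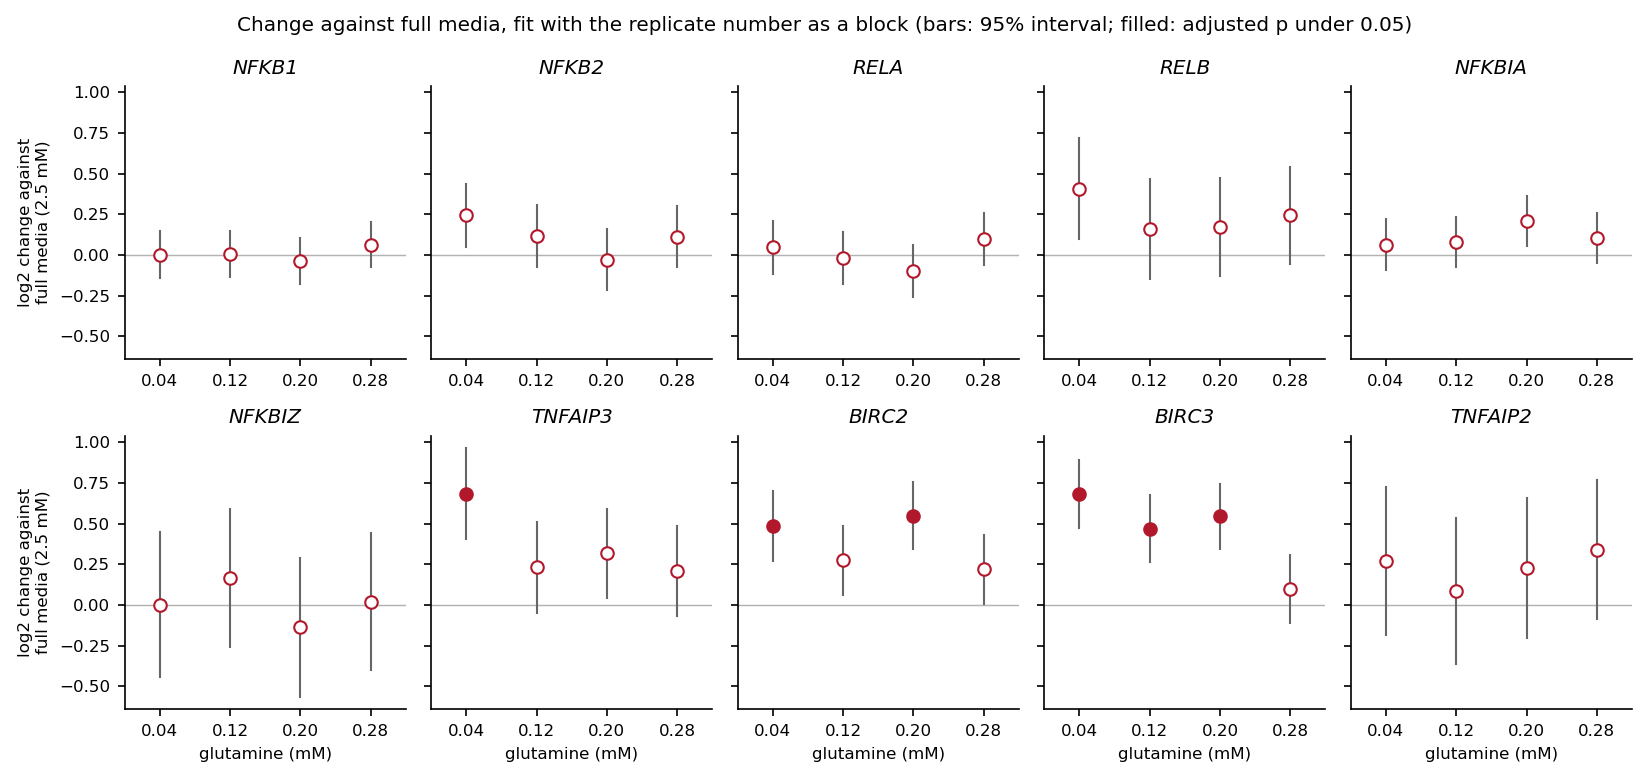
Log2 change of each member against full media at the 4 limited glutamine concentrations, with the replicate block in the fit. Bars are 95% intervals, and filled points have an adjusted p under 0.05. BIRC3 is filled at 0.04, 0.12 and 0.20 mM, BIRC2 at 0.04 and 0.20 mM and TNFAIP3 at 0.04 mM.

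Counted over all limited libraries, BIRC2 and BIRC3 were each above the full media library of their number in 11 of 12, and RELB, NFKBIA and TNFAIP3 in 10 of 12. Over all genes, 12.7% were higher in at least 11 of 12 and 19.5% in at least 10. At 0.04 mM, 5 members were higher in 3 of 3 pairs (NFKB2, RELB, TNFAIP3, BIRC2 and BIRC3), as 21.9% of all genes were.

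The replicate number held most of the variance of the BIRC genes, and also of TNFAIP2 and RELA. For log2 CPM over the 15 libraries it took 70.4% in BIRC3, 61.6% in BIRC2, 78.6% in TNFAIP2 and 62.1% in RELA. In the other members it took at most 42.9%, and the median over all genes was 36.7%. The glutamine condition took 27.1% in BIRC3 and 30.9% in BIRC2, against a median of 24% over all genes. In TNFAIP3 the order was the opposite, with 13.9% by replicate number and 64.8% by condition. BIRC3, BIRC2 and NFKBIA were lowest in replicate 1 in all 5 conditions, and replicate 1 was also the most deeply sequenced; the part of depth in this was not tested. The SE at 0.04 mM was 0.102 with the block and 0.341 without it for BIRC3, and 0.106 with it and 0.249 without it for BIRC2, while their log2 changes moved by less than 0.05.

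**Figure D4:**
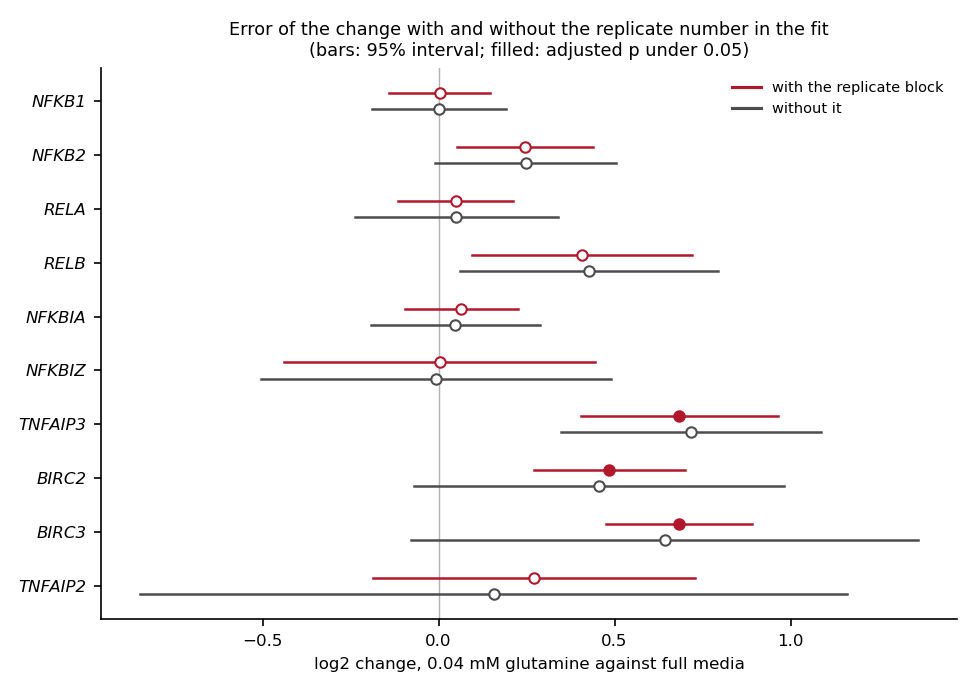
Log2 change of the 10 members at 0.04 mM glutamine against full media, from the fit with the replicate block (red, upper of each pair) and without it (grey, lower). Bars are 95% intervals, and filled points have an adjusted p under 0.05. The BIRC2 and BIRC3 intervals cross 0 without the block and not with it, and the points themselves differ little.

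Beside these changes stand the levels of other markers, in CPM of the unscaled library total. The summed endothelial markers, of which PECAM1 alone passed the filter on low counts, were 7.21 to 13.0 CPM at 0.04 mM against 3.85 to 6.04 CPM in full media. The fibroblast markers were 159 to 175 CPM at 0.04 mM against 114 to 159 CPM in full media, with 4 of 10 past the filter, and the immune markers 8.37 to 13.5 against 5.64 to 11.2 CPM, with 2 of 12. Within these lists CDH5, CLDN5, EMCN, LUM, THY1, CD3E, MS4A1 and TYROBP had 0 counts in every library. The part of these markers in the member changes was not tested. In bulk RNA a difference in the number of cells of a type and one in RNA per cell cannot be told apart. With both libraries rich in mitochondrial rRNA left out, the changes at 0.04 mM were 0.73 for BIRC3 (adjusted p = 0.000105), 0.61 for TNFAIP3 (adjusted p = 0.00938) and 0.49 for BIRC2 (adjusted p = 0.00617).

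Around the 10 members the pathway was read by lists of its other genes. These lists were chosen with earlier results of these data known, so their counts are a description. Of 54 target genes outside the members 35 passed the filter on low counts, and 11 rose and 0 fell at 0.04 mM, where 7.21% of all genes rose, with a median log2 change of 0.17 against 0.0064 over all genes. At 0.12 mM 5 rose (4.41% of all genes), at 0.20 mM 6 (7.67%) and at 0.28 mM 2 (1.23%), and 0 fell. Without the block 0 of these genes were called at 0.04 mM by edgeR, 1 by DESeq2 and 5 of 54 by edgeR with no filter. Of all genes 100 of 13828 rose with that DESeq2 fit and 103 of 32760 with no filter. With the block 6 rose under spike-in scaling, and 8 to 16 when 1 library was left out, 16 without full media replicate 1, where 2 fell. CXCL8, the neutrophil chemokine, averaged 11.7 CPM at 0.04 mM against 3.70 CPM in full media and rose by 1.67 (SE 0.225, adjusted p = 1.00e-05). PLAU, the urokinase protease, averaged 236.9 against 151.0 CPM and rose by 0.68 (SE 0.0852, adjusted p = 2.82e-06). Both also rose at the 3 other concentrations, CXCL8 by 1.2, 1.08 and 0.93 and PLAU by 0.58, 0.38 and 0.48.

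MMP9, a secreted gelatinase, rose by 1.49 at 0.04 mM (SE 0.240, adjusted p = 9.29e-05) and PTGES, a prostaglandin E synthase, by 0.40 (SE 0.0744, adjusted p = 0.000425). MMP9 rose again at 0.12 mM by 1.31, and PTGES at 0.12 and 0.20 mM by 0.41 and 0.25. These 4 are the target genes with the smallest p. Target genes respond to other transcription factors too, and binding was not measured.

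Among the parts upstream, no receptor or kinase passed the test at 0.04 mM. Of 22 receptors 15 were tested, with a median of 0.015. The receptors with the smallest p were IL1R1, the interleukin 1 receptor, at 0.37 (adjusted p = 0.0619), the death receptor TNFRSF21 at -0.22 (adjusted p = 0.0727), and LTBR, which feeds the non-canonical branch, at -0.16 (adjusted p = 0.114). TNFRSF21 fell at 0.12 and 0.20 mM, by 0.27 and 0.32, and IL1R1 rose at 0.20 mM by 0.37 (adjusted p = 0.0461). Of 12 kinases 11 were tested, with a median of 0.085. IKBKE, a kinase related to the IKK pair, stood at 0.28 (adjusted p = 0.242) and MAP3K3, a kinase upstream of IKK, at 0.18 (adjusted p = 0.190).

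Of 27 adaptors and ubiquitin ligases 26 were tested and 3 rose at 0.04 mM, beside the 7.21% of all genes that rose, with a median of 0.017. MALT1, the paracaspase that also cleaves A20, rose by 0.47 (SE 0.0795, adjusted p = 0.000173), and TAB2, which docks the kinase TAK1 on ubiquitin chains, rose by 0.41 (SE 0.0783, adjusted p = 0.000582). IRAK2, a kinase-like adaptor of the interleukin 1 receptor, averaged 6.89 CPM at 0.04 mM against 3.51 CPM in full media and rose by 0.95 (SE 0.236, adjusted p = 0.00638). MALT1 and TAB2 rose at 0.12 mM (0.38 and 0.28) and at 0.20 mM (0.52 and 0.37) as well.

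Of 24 inhibitors and deubiquitinases outside the members 23 were tested, 3 rose and 0 fell, beside the 7.21% of all genes that rose, with a median of -0.048. None of them passed under spike-in scaling, and 1 to 4 did when 1 library was left out. TAX1BP1, an adaptor of A20, rose by 0.34 (SE 0.0804, adjusted p = 0.00407), TNIP3, an A20-binding protein, by 1.11 (SE 0.318, adjusted p = 0.0177) and CYLD, a deubiquitinase, by 0.32 (SE 0.0959, adjusted p = 0.0225). TAX1BP1 also rose at 0.12 mM (0.25, adjusted p = 0.0436) and 0.20 mM (0.45, adjusted p = 0.000214), where 1 other gene of this list fell each time. TNIP3 was at 4.31 CPM at 0.04 mM against 1.89 CPM in full media. Its changes at 0.12 and 0.28 mM were 0.071 and 0.0998, and at 0.20 mM 0.61 (SE 0.315, adjusted p = 0.204). Of the 12 other subunit and cofactor genes 1 rose, BTRC, the ligase adaptor that marks IkB for degradation, by 0.30 (SE 0.0974, adjusted p = 0.0390), a share near the 7.21% of all genes. In this list 0 genes rose under spike-in scaling, with no filter, with only the compared groups, without replicate 3 of every condition, without the pair of libraries with most mitochondrial ribosomal RNA, or without replicate 2 or 3 at 0.04 mM or replicate 2 or 3 in full media. Without replicate 1 of either condition 2 of them rose. At 0.12 mM BTRC was the only gene of this list called, with a rise of 0.39 (SE 0.0940, adjusted p = 0.00792). At 0.20 mM BTRC stood at 0.25 (adjusted p = 0.0659) and 1 other gene of this list fell.

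**Figure D5:**
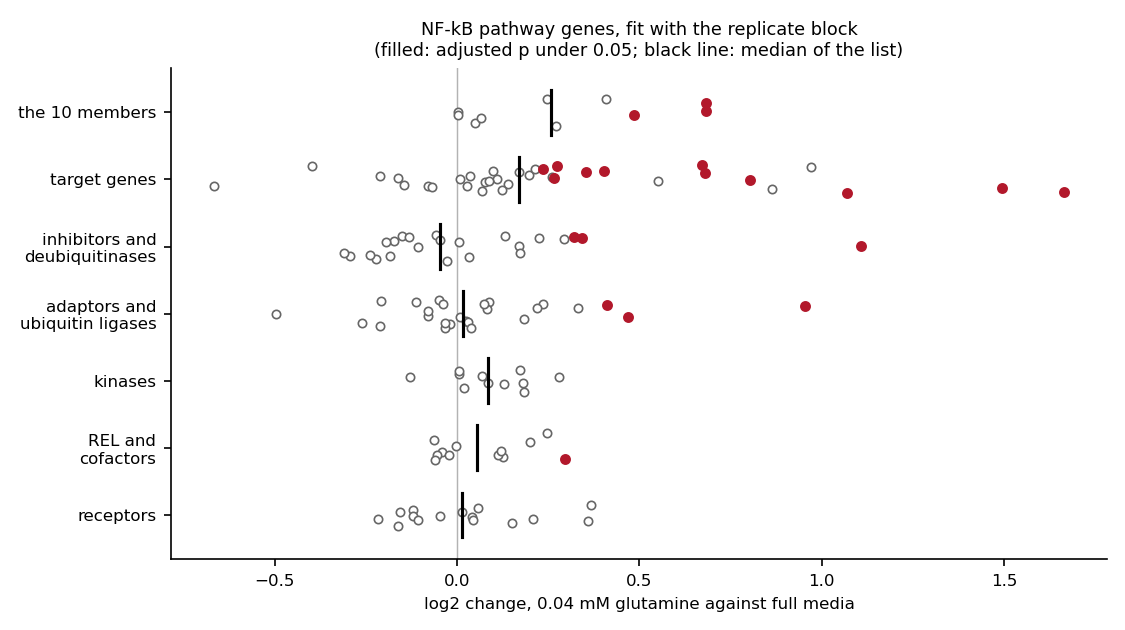
Log2 change at 0.04 mM glutamine against full media, fit with the replicate block, for each tested gene of the members and 6 pathway lists (1 point per gene, vertical scatter without meaning). Filled points have an adjusted p under 0.05 and black lines are list medians. The target genes hold 11 filled points, all to the right of 0, and the receptors and kinases none.

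The genes whose levels most resembled the called members are a description over 15 libraries, after removal of the mean of each replicate number, among 10306 genes with a symbol and a mean of at least 5 CPM. For BIRC3 they were ATRX (Pearson r 0.954), BRWD1 (0.947) and LGR4 (0.946), and for BIRC2 EBLN3P (0.935), GCC2 (0.925) and SGCB (0.920). For TNFAIP3 they were S100A3 (0.942), MYOSLID (0.930) and RPSAP52 (0.926). None of the members was among these. BIRC2 and BIRC3 correlated with each other at 0.786, which ranked 313 from BIRC3 and 235 from BIRC2. TNFAIP3 correlated with BIRC2 at 0.669 and with BIRC3 at 0.636. These points share the libraries and their scaling.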

How the data were processed

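RNA was depleted of ribosomal RNA and spiked with ERCC controls before library preparation, per the labels' protocols. The deposited table holds whole-number counts per gene and library made by the authors, with 62754 genes and 92 spike-ins. Aligner, counting tool and strand setting: not given in the sources used here. GRCh38.p14 is named in the submitters' processing notes. Each column matched 1 sample by name, with 0 unmatched. No 2 replicates were duplicates (lowest chi-square per degree of freedom 8.52 over 15 pairs).

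Counts were tested with edgeR 4.0.16 under R 4.3.3. The filter filterByExpr (minimum count 10, minimum total 15) kept 13828 genes, libraries were scaled by TMM, and 1 quasi-likelihood fit of all 15 libraries had 1 term per condition, with Benjamini-Hochberg adjustment over all genes and a threshold of 0.05. The slope used the 12 limited libraries. Replicate numbers come from the sample titles, and what they stand for is not stated. With condition means removed, 30 of 30 pairs of libraries with a shared number correlated above 0.1 (0.184 to 0.489), and pairs with different numbers lay between -0.406 and 0.0549. The removal makes deviations within a condition cancel, so positive values for shared numbers in themselves lower those for different numbers. The number was therefore treated as pairing and the fit with it as a block is given beside the other. Apart from the cell type markers and the filter of 5 CPM, which used unscaled totals, CPM was computed on TMM-scaled libraries. Log2 CPM had a prior count of 2.

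The members and the pathway lists were chosen with earlier results of these data known, and XIAP and TRAF1 stand in 2 lists each. Named pathway genes are up to 4 per list with the smallest p at 0.04 mM in the fit with the block, and the look-alikes are the 3 most correlated genes. Coordinates and promoter windows are from RefSeq (GRCh38.p14), and exon lengths and overlaps from GENCODE 29, which may not be the authors' gene set. Alternatives were DESeq2 1.42.0, its size factors, scaling to spike-ins, other filters, only the compared groups, and libraries left out. Running them on the pathway lists was added after seeing the data. The code was tested on simulated data. Tables were handled in Python 3.11.15 and figures drawn with matplotlib 3.10.9.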

Additional observations from a re-analysis of the deposited data

How the results depend on the processing

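The fit without the block, which called 0 members in every comparison, was the planned one, and the count of called members depended on the replicate block. At 0.04 mM against full media 3 members were called with the block, and 3 also with the block and DESeq2, DESeq2 size factors, spike-in scaling, no filter, a filter of 5 CPM, only the compared groups, replicate 3 left out of all conditions, or both libraries rich in mitochondrial rRNA left out. Over all genes the number that rose in these fits ran from 282 of 13828 with spike-in scaling to 1080 of 13828 with DESeq2 size factors. Without the block DESeq2 called 1 and the fit with no filter 2 (TNFAIP3 and BIRC3, adjusted p = 0.0479 and 0.0253). Over all genes these 2 fits called 100 up and 55 down of 13828, and 103 up and 56 down of 32760. At 0.12 mM the block gave 1 member, and 0 with spike-in scaling, where 76 of 13828 genes rose and 1130 fell. At 0.20 mM it gave 2, and 3 with the filter of 5 CPM or without the mitochondrial rRNA libraries. Over all genes 1112 rose and 1105 fell of 10777 with that filter, and 1087 and 1030 of 14040 without those libraries. At 0.28 mM it gave 0 under every alternative run. At 0.04 against 0.28 mM it gave 1, and DESeq2 gave BIRC3 no adjusted p there. For the slope over log2 glutamine the block gave 0, 1 with no filter (BIRC3, -0.15, adjusted p = 0.0220) and 3 in all 15 libraries (BIRC3 -0.12, TNFAIP3 -0.10, BIRC2 -0.081), where full media enter. Over all genes, the fit of all 15 libraries called 1041 positive and 1122 negative slopes of 13828. With no filter it was 17 and 22 of 30272.

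Leaving out 1 library in turn, the block called 3 to 5 members at 0.04 mM (4 without replicate 1 at 0.04 mM and 5 without full media replicate 1), 0 to 2 at 0.12 mM, 2 to 3 at 0.20 mM, 0 at 0.28 mM and 0 to 1 at 0.04 against 0.28 mM, and the fit without the block called 0 each time. Of 14118 to 14227 genes tested in these fits, the block called 561 to 1056 up and 395 to 1002 down at 0.04 mM. Both were highest without full media replicate 1. At 0.12 mM 293 to 734 rose and 244 to 705 fell, and at 0.20 mM 496 to 909 and 481 to 948. At 0.28 mM 18 to 448 rose and 6 to 332 fell, and at 0.04 against 0.28 mM 0 to 8 and 1 to 8. Under 14 alternatives with the block the calls at 0.04 mM held in all 14, with log2 changes of 0.63 to 0.74 for BIRC3, 0.51 to 0.86 for TNFAIP3 and 0.38 to 0.65 for BIRC2, and so did those at 0.20 mM, with 0.43 to 0.71 for BIRC2 and 0.49 to 0.58 for BIRC3. Spike-in scaling shifted the median log2 change of all genes by -0.18 at 0.12 mM, -0.13 at 0.28 mM and 0.13 at 0.04 against 0.28 mM. Over all genes, 997 rose and 861 fell at 0.04 mM with the block, against 282 and 224 with spike-in scaling and 6 and 0 without the block. Of 1620 member values under alternatives 138 changed sign, 107 of them within 1 SE, and in 0 did either value pass the test. They lay in NFKBIZ (35), NFKB1 (31), RELA (24), TNFAIP2 (22), NFKBIA (11), NFKB2 (5), RELB (5), BIRC3 (3) and BIRC2 (2). The cause of these differences was not tested. NFKBIZ and TNFAIP2 had the fewest counts of the members, 989 and 984 in all, and their 95% intervals at 0.04 mM were -0.440 to 0.446 and -0.186 to 0.727.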
